A study of Mus musculus with 4 samples.

Results

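DNA replication origin and fork genes are the 46 genes, of 24411 gene symbols measured in each library, that encode the proteins that mark replication origins, load and start the helicase, and copy and package DNA at the moving fork. They were taken by symbol from a list of named genes, and all 46 were found. A chromosome is copied from many origins. The origin recognition complex, with Cdc6 and Cdt1, first sets an inactive ring of MCM proteins on DNA. A kinase and loading factors then add Cdc45 and the GINS complex, the ring opens the double helix, and polymerases, a sliding clamp, a flap nuclease and a ligase make the new strands. In bone marrow, pro-B and large pre-B cells divide, whereas small pre-B cells and recirculating B cells rest, and many replication genes are known to be transcribed mainly in dividing cells.

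RNA was sequenced from B220-positive B cells (B220 is a form of Ptprc carried by B lineage cells) that were sorted from tibia and femur marrow. There were 2 libraries from mice labelled wildtype and 2 from mice labelled Arid5b overexpression (Arid5b is a DNA-binding protein of the ARID family). The labels give no strain, age or sex, and no promoter or cell type that drives the overexpression. They do not say whether animals were pooled or whether each library came from a separate mouse, so p-values measure only the spread between these libraries.

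Library totals ran from 14196665 to 20356404 reads, and the members had 8 to 3143 reads in a wildtype library, 164 to 8445 in overexpression-labelled library 1 and 17 to 3111 in overexpression-labelled library 2. Levels are given as counts-per-million of the library total (CPM), or as CPM per kilobase of transcript where genes are compared with one another. Differences are on the log2 scale of the deposited values, a scale that flattens the change of weakly expressed genes. Arid5b, the check of the labels, stood at 3803.7 CPM in the first library labelled Arid5b overexpression and at 136 CPM in the second, beside wildtype levels of 149 and 174 CPM. It goes against the label of the second of these libraries, so these libraries are called OE-labelled library 1 and OE-labelled library 2 throughout. All 8 B cell markers checked, among them Cd79a and Pax5, had reads in every library.

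The labelled groups were compared first, which asks whether replication genes differ with the Arid5b label. Of the 46 members, 43 had a higher mean in the OE-labelled group and 3 a lower one, with a median difference of 1.01 log2 units against -0.08 over all 12617 genes tested. None of the members passed limma's test at an adjusted p under 0.05, where 0.0% of all genes passed in either direction. No member had an unadjusted p under 0.05 by limma or by limma-voom on recovered reads, and the adjusted p of members ran from 0.726 to 0.876. Gins2, a GINS subunit, had the largest difference of the members (2.56, SE 1.51, limma adjusted p = 0.726). The median SD of the members was 1.43 between the OE-labelled libraries (n = 2) and 0.13 between the wildtype libraries (n = 2). The SD over all genes was not computed, so whether this spread is particular to the members is not known. OE-labelled library 1 lay above the other 3 libraries in 38.3% of all genes and below them in 47.8%. Both OE-labelled libraries lay above both wildtype libraries in 12 members, where they did in 19.6% of all genes, and below both in 2, where they did in 23.0%. The wide spread goes with OE-labelled library 1, as the plot of levels by library shows. Without it the median difference was -0.00044, and the sign changed for 20 of the 46 members.

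**Figure D1:**
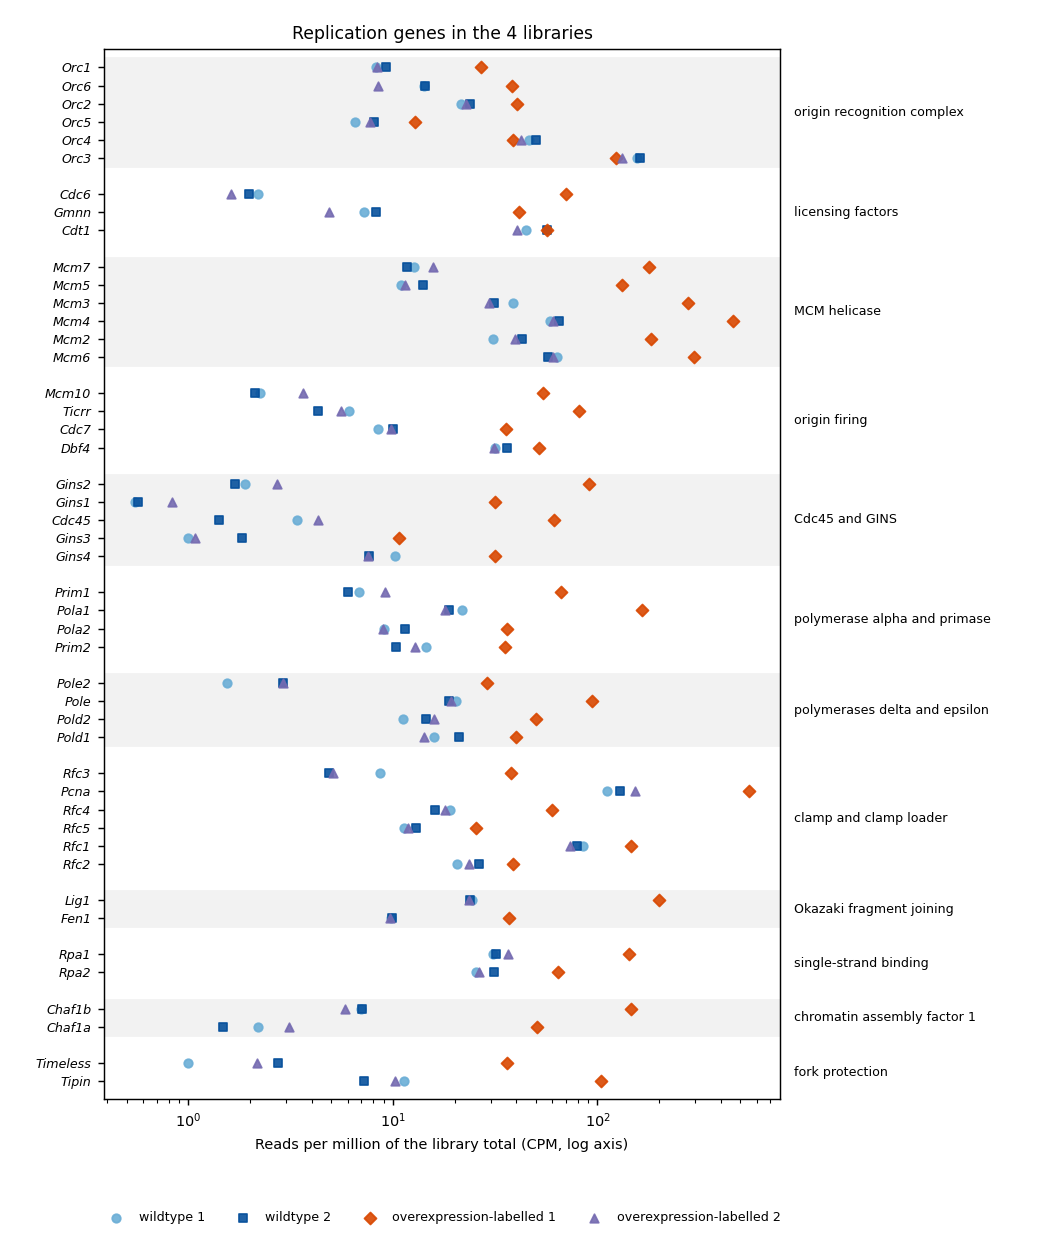
Levels of the 46 replication genes in each of the 4 libraries, in CPM on a log axis, with genes grouped by role and each symbol 1 library. OE-labelled library 1 (orange diamonds) stands above the other 3 libraries in 43 of the 46 genes (38.3% of all genes tested) and below them in 2 (47.8%), while OE-labelled library 2 (purple triangles) lies among or near the wildtype libraries (blue).

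Each OE-labelled library was therefore also set alone against the 2 wildtype libraries. A lone library is assumed in that fit to vary as the wildtype pair does, and the test compares that library, not the genotype. In OE-labelled library 1, 42 of the 46 members rose and 2 fell by limma, where 26.8% of all genes tested rose and 34.4% fell. It lay above each of the other 3 libraries in 43 members, where it did in 38.3% of all genes, and below them in 2, where it did in 47.8%. The median difference was 2.05 log2 units for the members and -0.15 for all genes. Gins1 reached the level that the filter asks for in the OE-labelled libraries alone; of the 45 members that reached it in wildtype as well, 41 rose. The summed level of the members was 4579.7 CPM in OE-labelled library 1, against 1055.6 and 1109.3 CPM in wildtype and 1056.3 CPM in OE-labelled library 2. By ratio of normalised reads to the wildtype mean, 26 members lay above 4 (8.53% of all genes did) and 14 above 8 (3.74% of all genes). The other scalings put the median of all genes up to 0.17 log2 units higher in this comparison, and relative to the median of all genes the median member was 2.20 higher. With no filter on low counts fewer of the members passed, and fewer of all genes passed as well. Many calls in this comparison thus rest on leaving out genes with few reads, among the members and among all genes. In bulk RNA, fewer cells of a type and less RNA per cell cannot be told apart.

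In OE-labelled library 2 none of the 46 members passed limma's test, where 0.769% of all genes rose and 0.888% fell. The median difference of the members was -0.00044, with 23 members higher and 23 lower, and 2 members had an unadjusted p under 0.05, as they did by limma-voom. Those 2 were Orc6 (-0.65, SE 0.260, limma adjusted p = 0.242) and Pcna (0.36, SE 0.148, limma adjusted p = 0.255). OE-labelled library 2 lay above both wildtype libraries in 12 members, below both in 14 and between them in 20, where it lay above both in 38.7% and below both in 37.3% of all genes. Ratios of normalised reads to the wildtype mean ran from 0.598 for Orc6 to 1.82 for Cdc45.

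**Figure D2:**
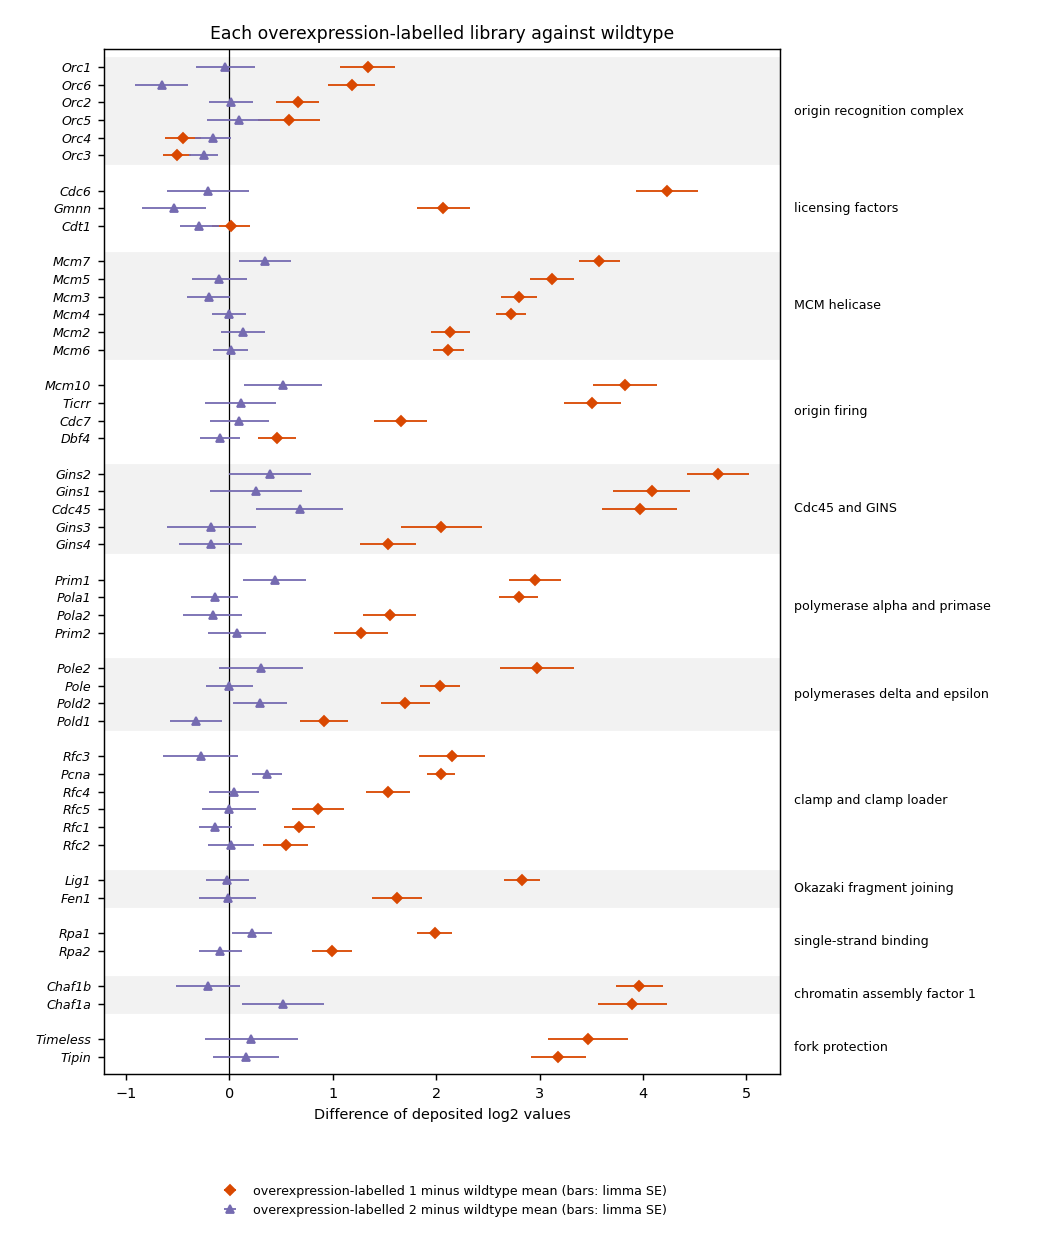
Difference of each OE-labelled library from the wildtype mean for the 46 members, in deposited log2 units, with limma standard errors as bars and genes grouped by role. Differences in library 1 (orange) run from -0.50 for Orc3 to 4.73 for Gins2, and those in library 2 (purple) from -0.65 for Orc6 to 0.68 for Cdc45; both are taken against the same wildtype libraries.

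The origin recognition complex, which binds origins and from which the MCM ring is loaded, had the smallest median difference of the 12 role groups in OE-labelled library 1. Of its 6 subunits 3 rose, 2 fell and 1 did not pass, with a median difference of 0.62. Among all genes tested 26.8% rose and 34.4% fell, and with 6 subunits these counts are no result about the complex. Orc1, the largest subunit and an ATPase, stood at 8.29 and 9.23 CPM in wildtype, 27.0 CPM in OE-labelled library 1 and 8.40 CPM in OE-labelled library 2. The first OE-labelled library alone was high, and Orc1 rose there by 1.34 (SE 0.263, limma adjusted p = 0.000659). Orc6, the smallest subunit, rose by 1.18 (limma adjusted p = 0.000537), from 14.2 and 14.3 to 38.0 CPM, and stood at 8.45 CPM in OE-labelled library 2, below both wildtype libraries. Orc2 rose by 0.66 (limma adjusted p = 0.0134), and Orc5 differed by 0.58 without passing (limma adjusted p = 0.107).

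Orc3 and Orc4, core subunits of the same complex, were the only members that fell. The annotated exons of Orc4 share 446 bases with Acvr2a and 136 bases with Mbd5 on the opposite strand. Acvr2a had 393 and 291 reads in wildtype and 100 and 262 in the OE-labelled libraries. Mbd5 had 1225 and 850, then 380 and 1543. Their part in the Orc4 counts was not tested. Orc3 (ENSMUSG00000040044.11, chromosome 4, 34570796 to 34614944, GRCm38) had 156 and 162 CPM in wildtype, 124 CPM in OE-labelled library 1 and 132 CPM in OE-labelled library 2. Both OE-labelled libraries were below both wildtype libraries, as they were for 2 of the 46 members and 23.0% of all genes. The difference in OE-labelled library 1 was -0.50 (SE 0.136, limma adjusted p = 0.00606), and -0.35 relative to the median of all genes. Orc4 went from 46.4 and 49.8 CPM in wildtype to 38.5 CPM in OE-labelled library 1 and 42.4 CPM in OE-labelled library 2 (-0.45 in library 1, limma adjusted p = 0.0415). These falls depend on the scaling and the filter: with totals without Rn45s, the ribosomal RNA precursor, or with no filter on low counts neither passed, and with library totals, recomputed size factors, limma-voom or a filter on a mean of 10 reads only that of Orc3 did.

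The licensing factors split. Cdc6, the ATPase that joins the origin recognition complex to load the helicase, stood at 2.18 and 1.97 CPM in wildtype, 70.2 CPM in OE-labelled library 1 and 1.62 CPM in OE-labelled library 2. It rose by 4.23 log2 units in library 1 (SE 0.304, limma adjusted p = 7.02e-08), a ratio of 30.5 in normalised reads. Cdt1, which brings the MCM ring to the origin, did not pass the test. Its levels were 44.7 and 56.6 CPM in wildtype, 56.5 CPM in OE-labelled library 1 and 40.4 CPM in OE-labelled library 2, a difference of 0.019 in library 1 (SE 0.183, limma adjusted p = 0.935). Gmnn encodes geminin, the protein that binds Cdt1 and blocks reloading of origins. It rose by 2.07 in OE-labelled library 1 (limma adjusted p = 1.39e-05), to 41.2 CPM from 7.25 and 8.24 CPM, and stood at 4.86 CPM in OE-labelled library 2. Per kilobase, Cdt1 was 3.18 and 3.53 times as abundant as Gmnn in wildtype, 4.28 times in OE-labelled library 2 and 0.706 times in OE-labelled library 1. Cdt1 protein is also controlled by degradation and by geminin, which RNA levels do not show.

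All 6 genes of the MCM helicase, the ring of Mcm2 to Mcm7 that unwinds DNA, rose in OE-labelled library 1 (median difference 2.76, range 2.12 to 3.58). Mcm7 (ENSMUSG00000029730.16, chromosome 5, 138164583 to 138172422) rose most, from 12.6 and 11.8 CPM in wildtype to 179 CPM, and had 15.7 CPM in OE-labelled library 2 (library 1 difference 3.58, SE 0.199, limma adjusted p = 5.83e-09). Mcm7 shares exon sequence with Cops6 and Ap4m1 on the other strand and is host to Mir25 and Mir93. Mcm6 rose least, from 63.5 and 57.4 to 296 CPM, with 60.3 CPM in OE-labelled library 2 (library 1 difference 2.12, SE 0.151, limma adjusted p = 6.34e-08). Mcm4 had the smallest adjusted p of all members (3.25e-09 by limma, difference 2.72), and Mcm2, Mcm3 and Mcm5 rose by 2.14, 2.80 and 3.12. The subunits of the ring act in equal numbers, but their RNA levels were unequal in every library. Per kilobase the highest MCM subunit exceeded the lowest 6.73 and 4.97 times in wildtype, 6.15 times in OE-labelled library 2 and 3.27 times in OE-labelled library 1. Mcm6 was the highest subunit in the wildtype libraries and OE-labelled library 2, and Mcm4 was in OE-labelled library 1.

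Of the genes that switch the loaded ring on, all 4 rose in OE-labelled library 1. Mcm10, which is needed for the assembled helicase to start unwinding, rose most (3.82, SE 0.310, limma adjusted p = 2.39e-07), with 2.23 and 2.11 CPM in wildtype, 54.1 CPM in OE-labelled library 1 and 3.64 CPM in OE-labelled library 2. Ticrr, which helps to bring Cdc45 to origins, rose by 3.51. The catalytic subunit and the activator of the kinase that phosphorylates the ring moved unequally. Cdc7, the kinase, rose by 1.66 (limma adjusted p = 9.05e-05). Dbf4, its activator, rose by 0.46 (SE 0.187, limma adjusted p = 0.0466), from 31.5 and 35.9 CPM to 51.9 CPM, with 31.2 CPM in OE-labelled library 2. The Dbf4 call was lost with either pseudocount, by limma-voom, with a filter on a mean of 10 reads and with no filter.

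Cdc45 and the GINS subunits, which turn the ring into the active helicase, rose in OE-labelled library 1 with all 5 members, by 1.54 to 4.73, Gins1 included, which passed the filter through the OE-labelled libraries alone. Gins2 (ENSMUSG00000031821.11, chromosome 8, 120578633 to 120589304) had 1.89 and 1.69 CPM in wildtype, 90.6 CPM in OE-labelled library 1 and 2.70 CPM in OE-labelled library 2. It rose by 4.73 in library 1 (SE 0.302, limma adjusted p = 2.18e-08), a ratio of 45.7. Its annotated exons share 2758 bases with Gse1 on the opposite strand, and whether the counting used strand is not given in the sources used here; Gse1 had 3627 and 2178 reads in wildtype and 795 and 2134 in the OE-labelled libraries. Gins1 rested on few reads outside library 1, with 11 and 8 in wildtype, 481 in OE-labelled library 1 and 17 in OE-labelled library 2, a ratio of 51.3. Cdc45 rose by 3.97 (limma adjusted p = 7.69e-07), and its wildtype libraries themselves differed, at 3.38 and 1.41 CPM, beside 61.2 and 4.32 CPM in the OE-labelled pair. Gins3 rose by 2.05 and Gins4 by 1.54, the least of the group, from 10.2 and 7.61 to 31.5 CPM (OE-labelled library 2: 7.57 CPM). The proteins of Gins1 to Gins4 form a complex of 1 copy each. Their RNA levels per kilobase spanned 19.2-fold and 13.01-fold in wildtype, where Gins4 was highest, 13.1-fold in OE-labelled library 2 and 6.80-fold in OE-labelled library 1, where Gins1 was highest.

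**Figure D3:**
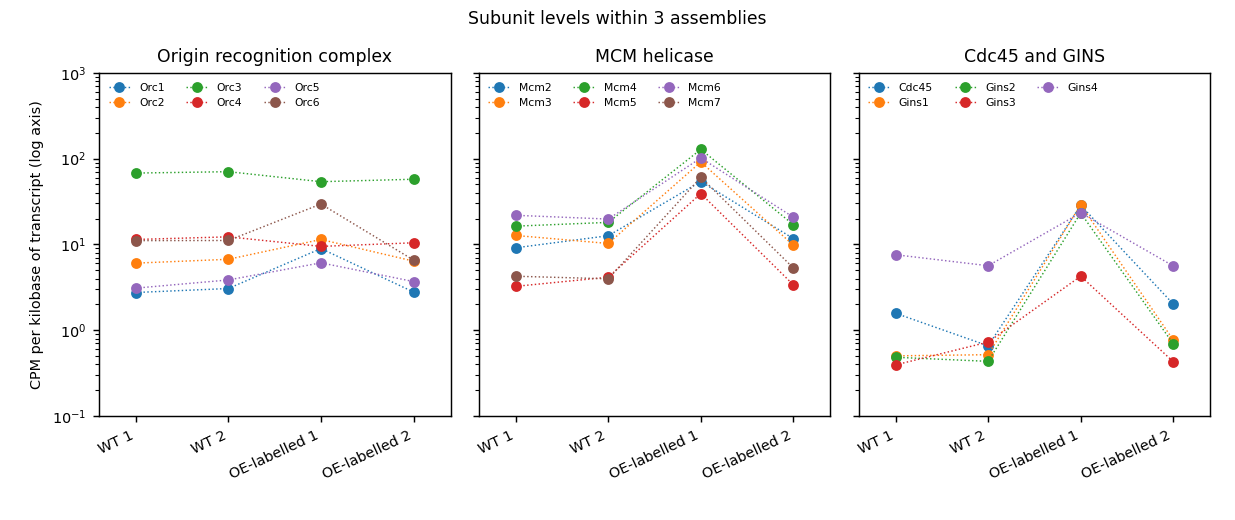
Levels per kilobase of transcript (CPM per kilobase, log axis) of the subunits of the origin recognition complex, the MCM helicase, and Cdc45 with GINS in the 4 libraries; WT is wildtype, OE-labelled is overexpression-labelled, and dotted lines only join points of the same gene. In the first panel Orc3 is highest in every library and lies lower in both OE-labelled libraries, whereas every MCM, Cdc45 and GINS gene peaks in OE-labelled library 1.

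The polymerases rose in OE-labelled library 1 with 8 of 8 members. Polymerase alpha and its primase lay the short primers that start each strand. Prim1, the catalytic primase subunit, rose by 2.95 (SE 0.254, limma adjusted p = 4.26e-07), from 6.80 and 6.06 to 66.1 CPM, and had 9.14 CPM in OE-labelled library 2. Prim2, its partner, rose by 1.28 (limma adjusted p = 0.000884), from 14.5 and 10.4 to 35.3 CPM, with 12.9 CPM in OE-labelled library 2. Per kilobase Prim1 was thus at 0.583 and 0.73 times the level of Prim2 in wildtype, 0.886 times in OE-labelled library 2 and 2.33 times in OE-labelled library 1. Pola1, the catalytic polymerase alpha subunit, rose by 2.80, and Pola2, its accessory subunit, by 1.55.

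Polymerase epsilon copies mainly the leading strand and polymerase delta mainly the lagging strand. Pole2, the second epsilon subunit, rose most of these 4 genes (2.97, SE 0.356, limma adjusted p = 9.8e-06), from 1.54 and 2.89 to 28.9 CPM, with 2.90 CPM in OE-labelled library 2. Pold1, the catalytic delta subunit, rose least (0.91, SE 0.229, limma adjusted p = 0.0037), from 15.9 and 21.1 to 39.8 CPM, with 14.2 CPM in OE-labelled library 2. Between them lay Pole, the catalytic epsilon subunit, at 2.03, and Pold2, an accessory delta subunit, at 1.70.

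Pcna, the sliding clamp that holds polymerases on DNA, was the most abundant member per kilobase in every library. It had 111 and 129 CPM in wildtype, 553 CPM in OE-labelled library 1 and 153 CPM in OE-labelled library 2, the last also above both wildtype libraries. Pcna rose by 2.05 in library 1 (SE 0.136, limma adjusted p = 3.37e-08). The annotation holds the pseudogenes Pcna-ps1 and Pcna-ps2, and reads that they share with Pcna cannot be told apart here. All 5 subunits of the clamp loader, which opens the ring and sets it on DNA, rose too. Rfc3 led with 2.15 (limma adjusted p = 6.22e-05), from 8.69 and 4.86 to 37.8 CPM, with 5.11 CPM in OE-labelled library 2. Rfc2 had the smallest rise (0.54, SE 0.216, limma adjusted p = 0.0423), from 20.6 and 26.5 to 38.5 CPM, with 23.5 CPM in OE-labelled library 2. That call was lost with a pseudocount of 0.5, with a filter on a mean of 10 reads and with no filter. The annotated exons of Rfc2 share 952 bases with Lat2 on the opposite strand. Lat2 had 1053 and 729 reads in wildtype and 168 and 910 in the OE-labelled libraries. Rfc5 likewise shares 499 bases with Wsb2, and Orc2 1150 bases with Nif3l1. The part of these genes in the counts was not tested. Rfc4 rose by 1.54, Rfc5 by 0.86 and Rfc1, the large subunit, by 0.68. Per kilobase Pcna was 4.10 and 5.11 times Rfc1 in wildtype, 6.495 times in OE-labelled library 2 and 11.9 times in OE-labelled library 1.

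The remaining 8 members act at the fork or just behind it, and all 8 rose in OE-labelled library 1. Lig1, the ligase that joins Okazaki fragments, rose by 2.83 (SE 0.172, limma adjusted p = 1.43e-08), from 24.3 and 23.9 to 200.04 CPM, and had 23.5 CPM in OE-labelled library 2. Fen1, the nuclease that trims their flaps, rose by 1.62 (limma adjusted p = 8.14e-05), from 9.78 and 9.93 to 37.0 CPM, and had 9.63 CPM in OE-labelled library 2. In both genes the wildtype libraries and OE-labelled library 2 were nearly equal. Rpa1 and Rpa2, which coat single-stranded DNA, rose by 1.99 and 0.99 (limma adjusted p = 3.97e-07 and 0.000659). Rpa1 levels were 30.7, 32.0, 143 and 36.4 CPM, and Rpa2 levels 25.6, 31.3, 64.1 and 26.3 CPM, with the wildtype pair first and the OE-labelled pair after it.

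Chromatin assembly factor 1 sets new histones on the copied DNA, and its subunits were among the members with the largest rises. Chaf1b rose by 3.96 in OE-labelled library 1 (SE 0.224, limma adjusted p = 7.02e-09), from 7.0 and 7.04 to 145 CPM, with 5.85 CPM in OE-labelled library 2. Chaf1a rose by 3.90 (SE 0.330, limma adjusted p = 3.75e-07), from 2.18 and 1.48 to 50.6 CPM, with 3.09 CPM in OE-labelled library 2; its exons share 4648 bases with Ubxn6 on the other strand. Timeless and Tipin form the complex that steadies the fork. Timeless rose by 3.46 (limma adjusted p = 5.25e-06), from 0.993 and 2.75 to 35.9 CPM, with 2.16 CPM in OE-labelled library 2. Tipin rose by 3.18 (limma adjusted p = 2.89e-07), from 11.4 and 7.18 to 104 CPM, with 10.2 CPM in OE-labelled library 2.

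Members that were scarce in wildtype had the larger ratios in OE-labelled library 1. The 23 members with the lowest wildtype level per kilobase had a median ratio of 9.58 in normalised reads, and the 23 with the highest a median ratio of 3.18. Across the 46 members the log2 ratio and the log2 wildtype level had a Pearson r of -0.73 and a Spearman rho of -0.65. Both axes contain the wildtype reads, and genes are not independent replicates, so these values are a description. The ratios of OE-labelled library 2 ran from 0.598 to 1.82 over the same range of levels. Over members, deposited values correlated at a Pearson r of 0.977 between the wildtype libraries, 0.981 and 0.977 between these and OE-labelled library 2, and 0.589 and 0.536 between these and OE-labelled library 1.

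**Figure D4:**
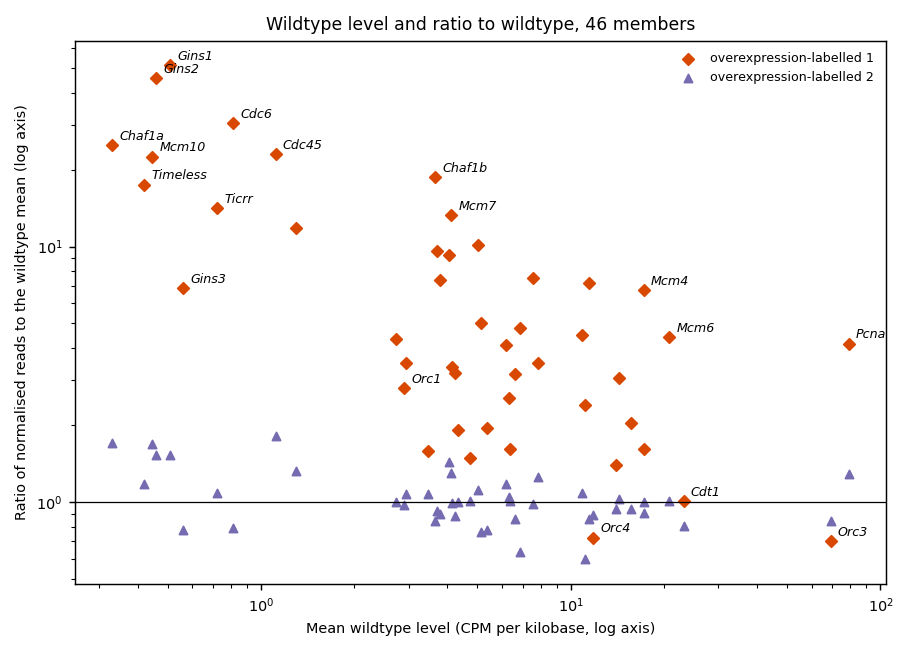
Mean wildtype level of each of the 46 members (CPM per kilobase, log axis) against its ratio of normalised reads to the wildtype mean (log axis) in OE-labelled library 1 (orange) and library 2 (purple); the line marks a ratio of 1. Scarce genes such as Gins1 and Gins2 reach ratios of 51.3 and 45.7 in library 1, Cdt1 lies at 1.008 and Orc3 below the line, and library 2 keeps between 0.598 and 1.82.

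Because most members moved together in OE-labelled library 1, their promoter letters were examined. E2F proteins are the transcription factors best known for acting on replication genes. The letters TTTCCCGC, TTTGGCGC, TTTCGCGC and TTTGCCGC, forms of the E2F site, were searched on both strands from 250 bases before to 50 bases after each annotated start in RefSeq (GRCm38.p6). Windows were found for 37 of the 46 members, and 14 of these (37.8%) held at least 1 match, against 2.6% of 27025 genes and 2.26% of 32851 windows. The 14 were Cdc6, Cdt1, Gins3, Lig1, Mcm3, Mcm5, Mcm6, Mcm7, Orc1, Orc3, Pola1, Pold1, Pole2 and Rfc3. In OE-labelled library 1 their median difference was 2.48, and that of the 23 members with a window and no match was 1.66. The differences ran from -0.50 to 4.23 with a match and from -0.45 to 3.97 without. The 9 members without a window had a median difference of 2.07. Whether the letters go with the size of the difference was not tested. A match says only that these letters stand there. The 200 bases before the start are printed for 4 members that rose and for Orc3, which fell, because all 5 carry the letters there while their RNA moved unequally. They run 5′ to 3′ on the strand of the gene. Capitals mark the E2F letters on either strand, and overlapping matches run together in Mcm5 and Mcm6. The Cdc6 stretch lies before the RefSeq start but inside the GENCODE gene, which begins at 98907801.
Cdc6, chr11:98907951-98908150, plus strand: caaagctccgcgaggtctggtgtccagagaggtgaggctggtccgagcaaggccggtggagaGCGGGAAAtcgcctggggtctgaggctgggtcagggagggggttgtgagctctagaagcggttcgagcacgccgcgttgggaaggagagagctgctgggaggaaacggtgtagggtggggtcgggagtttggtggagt
Mcm5, chr8:75109309-75109508, plus strand: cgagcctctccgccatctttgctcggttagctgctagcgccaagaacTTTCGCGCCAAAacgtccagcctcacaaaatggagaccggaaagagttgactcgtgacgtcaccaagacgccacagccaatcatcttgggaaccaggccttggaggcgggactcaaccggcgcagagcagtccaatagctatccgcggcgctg
Mcm6, chr1:128359706-128359905, minus strand: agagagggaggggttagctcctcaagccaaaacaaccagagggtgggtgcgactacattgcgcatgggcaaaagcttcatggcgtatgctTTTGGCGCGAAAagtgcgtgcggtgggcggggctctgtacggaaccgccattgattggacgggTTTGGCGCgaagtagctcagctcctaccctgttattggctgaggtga
Pola1, chrX:93632156-93632355, minus strand: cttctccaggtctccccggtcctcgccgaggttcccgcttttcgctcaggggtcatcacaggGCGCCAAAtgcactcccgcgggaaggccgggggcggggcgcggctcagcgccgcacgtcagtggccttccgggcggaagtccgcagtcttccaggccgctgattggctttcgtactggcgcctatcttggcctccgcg
Orc3, chr4:34614943-34615142, minus strand: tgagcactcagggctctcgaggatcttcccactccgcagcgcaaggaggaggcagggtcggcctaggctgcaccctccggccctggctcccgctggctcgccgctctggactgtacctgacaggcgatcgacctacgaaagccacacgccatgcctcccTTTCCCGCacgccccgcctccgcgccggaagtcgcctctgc
In OE-labelled library 1 the RNA of these genes differed from wildtype by 4.23 for Cdc6, 3.12 for Mcm5, 2.12 for Mcm6, 2.80 for Pola1 and -0.50 for Orc3.

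Other genes of DNA replication moved in OE-labelled library 1, where 26.8% of all genes tested rose and 34.4% fell. Of 40 further fork and origin genes 39 were tested, and 29 rose and 3 fell in OE-labelled library 1 (median difference 1.39), while 0 passed in OE-labelled library 2 (median 0.06). Uhrf1, which brings DNA methylation to the new strand, rose most (4.51, limma adjusted p = 3.37e-08), and Pold4, a small subunit of polymerase delta, fell most (-0.92, limma adjusted p = 0.0431). Mcm9, a relative of the MCM genes that is not part of the ring, fell by 0.47 (limma adjusted p = 0.0464) and Donson, a fork factor, by 0.48 (limma adjusted p = 0.0276). Of 12 genes of deoxynucleotide supply 10 rose and 1 fell (median 2.98). Rrm2, the regulated subunit of ribonucleotide reductase, rose by 5.36, and Samhd1, which breaks deoxynucleotides down, fell by 1.41 (limma adjusted p = 2.25e-06). Of 12 genes of S phase entry 12 rose (median 2.07), from E2f3 at 0.74 to E2f8 at 4.40.

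Of 11 checkpoint genes tested, which watch over the fork, 4 rose and 3 fell in OE-labelled library 1 (median -0.22), where 26.8% of all genes rose and 34.4% fell, so these counts lie near those of all genes. Chek1, the effector kinase of the fork checkpoint, rose by 2.72 (SE 0.239, limma adjusted p = 5.43e-07). Atrip, the partner of the kinase Atr, fell by 0.94 (SE 0.224, limma adjusted p = 0.0026), and Atr itself differed by -0.30 (limma adjusted p = 0.124). Mitotic genes, which act after replication, rose in 22 of 22 cases there (median 3.85) and in 1 case in OE-labelled library 2 (median 0.35), namely Mki67 (0.84, limma adjusted p = 0.0246). Cenpf, a kinetochore protein, rose most in library 1 (5.06). No gene of these 5 lists passed in the comparison of the labelled groups by limma.

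**Figure D5:**
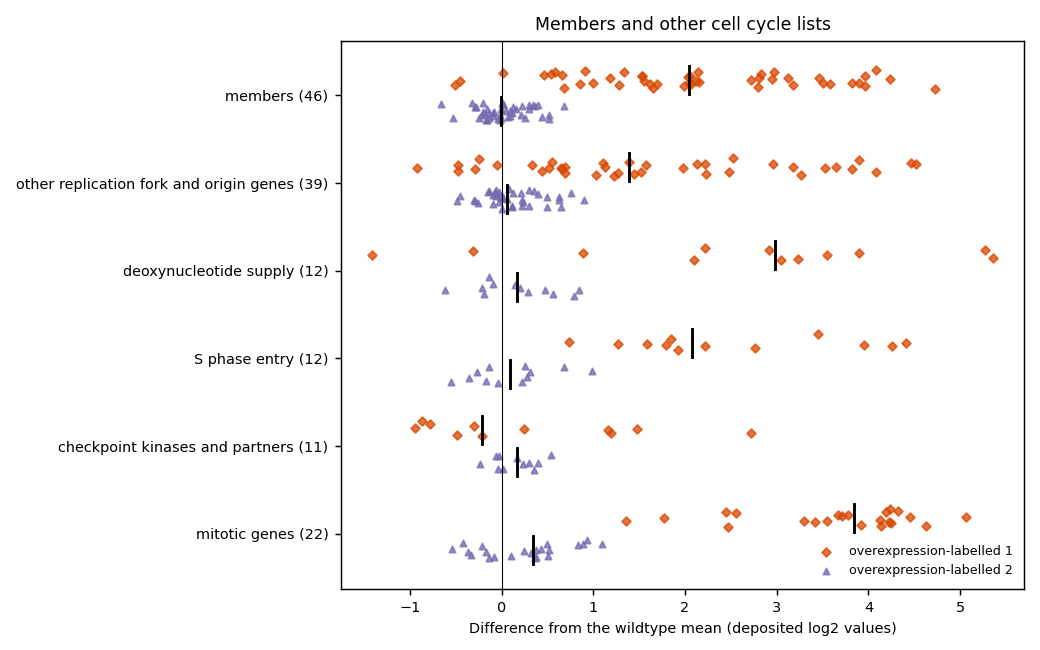
Difference from the wildtype mean (deposited log2 values) of each tested gene in OE-labelled library 1 (orange) and library 2 (purple), for the members and for 5 other cell cycle lists, with the number of genes tested in parentheses and black bars at the medians; points are spread vertically for visibility only. In library 1 the medians are 2.05 for the members, 1.39 for other fork and origin genes, 2.98 for deoxynucleotide supply, 2.07 for S phase entry, -0.22 for checkpoint genes and 3.85 for mitotic genes.

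Markers of B cell stages differed in OE-labelled library 1, and their part in the replication gene differences was not tested. Of all genes tested, 26.8% rose and 34.4% fell in that library, and 0.769% rose and 0.888% fell in OE-labelled library 2. The summed level of 8 large pre-B and pro-B cell markers was 4268.9 CPM in OE-labelled library 1, against 16.5 and 11.3 CPM in wildtype and 4.57 CPM in OE-labelled library 2. Igll1 and Vpreb1, whose proteins stand in for the light chain in the pre-B receptor, were at 0 reads in the other 3 libraries. Among the 4 of these markers that were tested, Il7r, Erg and Lef1 rose in library 1 and Dntt did not pass, and Lef1 fell in library 2. Of 8 mature B cell markers 7 fell in library 1 (summed level 495.7 CPM against 19634 and 20490.4 CPM in wildtype and 18679.4 CPM in OE-labelled library 2). Of 8 general B cell markers 5 fell, Ptprc by 2.47, and 3 rose, Pax5, Ebf1 and Cd79b (summed level 3338.2 CPM against 5157.9 and 5733.04 CPM in wildtype).

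Markers of other cell types were checked as well, and their part in the replication gene differences was not tested. The shares of all genes were 26.8% rising and 34.4% falling in library 1, and 0.769% and 0.888% in library 2. Counts near these shares, in lists this short, are no result about a cell type. Of 8 erythroid markers Hba-a1, Hbb-bt and Gata1 were at 0 reads in every library, and the summed level was 5.56 and 5.14 CPM in wildtype and 6.28 and 5.99 CPM in the OE-labelled libraries. Of the 3 that were tested, Slc4a1 rose and Epor fell in library 1. The 10 neutrophil markers summed to 7.20 and 99.8 CPM in wildtype, 131.7 CPM in OE-labelled library 1 and 1442.5 CPM in OE-labelled library 2, where 3 of 8 tested rose in library 1 and 8 of 8 in library 2. Of 8 monocyte markers 6 were tested, and 3 fell in library 1 and 1 rose in library 2 (summed 43.8 and 51.0 CPM in wildtype, 34.7 and 218.2 CPM in the OE-labelled libraries). Of 10 T and NK cell markers 9 fell in library 1 and 2 in library 2 (71.9 and 69.8 CPM, then 7.72 and 36.8 CPM). Of 8 plasmacytoid dendritic cell markers 7 fell in library 1 (883.5 and 742.5 CPM, then 251.8 and 793.0 CPM). Of 6 plasma cell markers tested 2 rose and 4 fell in library 1, and 1 fell in library 2 (1173.9 and 1388.0 CPM, then 1061.3 and 1429.7 CPM). Of 3 stem and progenitor markers tested 3 fell in library 1 (77.6 and 120.3 CPM, then 6.09 and 151.6 CPM).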

How the data were processed

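B220-positive marrow B cells were profiled in 4 RNA sequencing libraries, 2 labelled wildtype and 2 labelled Arid5b overexpression; 1 wildtype label is misspelled, and 1 column header differs in a digit from its sample's title. STAR, HTSeq, DESeq2 and the mm10 build are named in the submitters' processing notes; versions, settings and annotation are not given in the sources used here. The authors deposited log2 values whose lowest value, 4.949, marks genes without a read, in the form of a variance stabilizing transformation. Reads were recovered from these values, and 100% came out whole within 0.01; CPM and ratios use them. Genes were tested that reached the equivalent of 10 reads in a library of median size in 2 or more libraries, and 15 reads in all (12617, with all 46 members). Limma-trend (limma 3.58.1, R 4.3.3) was fitted to the deposited log2 values of all tested genes, two-sided, with Benjamini-Hochberg adjustment and a threshold of 0.05; each overexpression-labelled library was also fitted alone against wildtype. Differences were not fitted on counts except by limma-voom. Transcript lengths (the longest principal transcript) and coordinates are from GENCODE vM21 (GRCm38). Pclaf was read from its synonym 2810417H13Rik. Members, lists and rules were chosen with earlier results of these data known. Values were printed for the largest and smallest difference of each role group, every fall, and other members in brief. Of the other cell cycle lists the extremes were printed, with Mcm9, Donson, Chek1, Atr and Mki67 chosen after their values were seen. For the marker lists summed levels and some single genes were given, not the extremes. Ptprc was not the extreme of its list: Blnk had the lowest difference there in overexpression-labelled library 1 (-2.99). Alternatives were other scalings, pseudocounts, filters, a robust prior, limma-voom and leaving out each library. Some single markers are not reported here.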

Additional observations from a re-analysis of the deposited data

How the results depend on the processing

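No paired analysis was possible because the labels give no batch, litter or pairing. In the comparison of the labelled groups, 0 members passed under every scaling, pseudocount, filter and prior tried and by limma-voom, and the median difference of the members was 0.80 with 5 CPM in 2 libraries, which leaves 37 members. Leaving out 1 library at a time, the number called higher ran from 0 to 42, the number called lower from 0 to 2, and the median from -0.00044 to 2.05; the extremes are those without OE-labelled library 1 and without library 2. For OE-labelled library 1, the number called higher was 40 to 43 under the alternatives that keep all 46 members, except with no filter on low counts, where it was 18, with more genes tested; it was 33 of 37 with 5 CPM in 2 libraries. The number called lower was 1 with library totals, recomputed size factors, limma-voom or a mean of 10 reads, and 0 with totals without Rn45s or no filter; the cause was not tested. With no filter, fewer of all genes passed as well, not of the members alone. The median of the members was 2.18 with library totals, 2.24 with totals without Rn45s, and 1.66 with 5 CPM in 2 libraries. Set against wildtype library 2 or 1 alone, with no test, it was 1.96 and 2.02. Orc5 passed as higher with library totals and with totals without Rn45s. No member changed sign in library 1 under another scaling, pseudocount, filter, prior or limma-voom. For OE-labelled library 2, 0 members passed under these alternatives. Members with few wildtype reads, such as Gins1 with 8 and 11, are the least precise.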

Other observations

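The wildtype libraries differed little in most members, by a median of 0.18 log2 units against 0.20 over all genes tested, but not in all. Timeless stood at 0.993 and 2.75 CPM in wildtype libraries 1 and 2, Cdc45 at 3.38 and 1.41 CPM, Rfc3 at 8.69 and 4.86 CPM and Tipin at 11.4 and 7.18 CPM, so that the wildtype level of these fork genes is known less well than that of Fen1 (9.78 and 9.93 CPM).

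Both OE-labelled libraries lay above both wildtype libraries in 12 of the 46 members, where 19.6% of all genes did. These were Mcm7, Cdc7, Mcm10, Cdc45, Gins1, Gins2, Prim1, Pold2, Pole2, Pcna, Rpa1 and Chaf1a, none of which passed in library 2.

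The letters CCAAT, a box known from promoters of many cell cycle genes, stood in the promoter windows of 22 of the 37 members with a window (59.5%, against 41.1% of all genes), and TTTGAA, letters of the cell cycle homology region, in 7 (18.9%, against 20.2%), on either strand.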
